A study of Mus musculus with 8 samples.

Results

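The genes of the mitochondrial ribosome were followed in bone marrow-derived macrophages (BMDMs) of mice with and without a myeloid deletion of KLF2, a zinc finger transcription factor. Members were the listed genes whose mouse symbol starts with Mrpl or Mrps and a number, pseudogenes left out, and the rule found 77 of the 23761 listed genes. Of these, 48 carry a large subunit symbol (Mrpl) and 29 a small subunit symbol (Mrps). Control mice (LysM) had the genotype LysM Cre/Cre, and knockout mice (K2KO) had LysM Cre/Cre with KLF2 flox/flox, so that both genotypes carried 2 copies of a Cre inserted in the lysozyme gene of myeloid cells. Mice were 3 months old, marrow was grown in medium conditioned by L929 cells, and the columns are marked as vehicle. RNA-sequencing gave 4 libraries per genotype, named here LysM0 to LysM3 and K2KO0 to K2KO3. These names follow the column numbers and do not refer to the submitters' samples with similar titles. Expression is given as FPKM, the number of fragments of a gene divided by its transcript length and by the size of the library, so that levels of different genes can be set side by side. The read depth behind each value is unknown. Steps among the lowest values gave a depth relative to LysM0 of 0.966 to 1.24 in LysM and 0.889 to 1.46 in K2KO libraries.

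Mitochondria keep a ribosome of their own, which translates the few messages of mitochondrial DNA into membrane subunits of the respiratory chain and ATP synthase. Its RNAs come from mitochondrial DNA, whereas all of its proteins are encoded in the nucleus, made in the cytosol and imported. The large subunit forms the peptide bond and releases the new chain through an exit tunnel, and the small subunit holds the messenger RNA and reads its codons. Many of the proteins have bacterial relatives, and others are found only in mitochondria.

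Klf2 itself was listed at 44.1, 52.9, 64.7 and 72.8 FPKM in the LysM libraries and at 45.5, 41.6, 59.2 and 59.3 FPKM in those labelled K2KO. The groups overlapped, and the log2 fold change of -0.18 (SE 0.17) did not pass (limma, adjusted p = 0.46). A gene-level FPKM does not tell whether the floxed exons are covered, so Klf2 did not verify the genotype labels, and directions below refer to the libraries as labelled. The macrophage label was met by its markers, all 8 of which were above the filter, with Cd68 at a mean of 1807 FPKM. Summed fibroblast markers were at most 3.25 FPKM, summed T cell markers at most 0.932 FPKM, summed erythroid markers at most 1.77 FPKM, summed dendritic cell markers at most 2.11 FPKM and summed B cell markers at most 5.44 FPKM in any library. Neutrophil markers summed to between 175 and 315 FPKM, led by S100a9 at a mean of 129 FPKM. Proliferation markers summed to between 97.5 and 145.6 FPKM, and none of 4 tested was called, with 0 at an unadjusted p under 0.05 and 0 by least squares per gene. Of the macrophage markers, Lyz2 was lower (log2 fold change -0.49, limma adjusted p = 0.026) and Mertk higher (0.36, adjusted p = 0.0285), and of 7 tested neutrophil markers Camp was lower (-1.14, adjusted p = 0.0178). Their part in the results below was not tested. Lyz2 is the lysozyme gene that holds the Cre in both genotypes, so its FPKM is no plain measure of macrophages. In bulk samples, fewer cells of a type and less RNA per cell cannot be told apart.

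Levels of the mitochondrial ribosomal protein genes were moderate and spanned a wide range. The 76 members with a mean of at least 1 FPKM, which were tested, ran from 2.58 FPKM for Mrpl47 to 199.5 FPKM for Mrps21, and their median was 26.8 FPKM against 9.98 FPKM over all 10920 tested genes. In the large subunit Mrpl33 (109.3 FPKM), Mrpl14 (88.4 FPKM) and Mrpl52 (83.0 FPKM) were highest. Among genes with a small subunit symbol, Mrps21 was followed at a distance by Mrps18a (71.9 FPKM), which sits in the large subunit, and Mrps16 (67.4 FPKM). Mrpl23, a protein at the exit tunnel, had a mean of only 0.283 FPKM and was not tested. Nearly all signal of its sequence was listed under the pseudogene Mrpl23-ps1, described further on.

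Most members had a small negative fold change in K2KO BMDMs, and a minority passed the test. A gene is referred to as called where limma on log2(FPKM + 0.1) gave a log2 fold change beyond 0.26 in either direction at an adjusted p under 0.05. Both limits were taken from the study's methods. In the large subunit 9 of 47 tested members were lower, 1 was higher and 37 were not called. In the small subunit 4 of 29 were lower by limma, none was higher and 25 were not called. At an unadjusted p under 0.05 the numbers were 22 and 13, of which 2 and 1 were higher, and least squares per gene called 3 and 0. Of all 10920 tested genes, 4126 had an unadjusted p under 0.05, 2153 of them higher, and least squares called 6.83%.

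With FPKM as deposited, the number of calls did not stand out from the background and their direction was one-sided. Of all tested genes 18.4% were called, 8.61% lower and 9.84% higher. The members were called at 18.4%, with 17.1% lower and 1.32% higher. The log2 fold change was negative for 39 of 47 large and 23 of 29 small subunit members, compared with 48.2% of all tested genes. Its median was -0.14 for the large subunit (a change of -9.55%) and -0.18 for the small subunit (-11.7%), against 0.01 for all tested genes. Every K2KO library lay below every LysM library for 10 members and above for 3 (Mrpl3, Mrpl19 and Mrps22), while 63 overlapped. The corresponding background was 10.2% of all tested genes below and 12.9% above. With libraries scaled to equal sums, described below, 2 of 76 members were called lower and 4 higher. Of 10932 tested genes in that scaling, 346 were lower and 2789 higher. The subunit medians were then 0.0222 and -0.0145, against 0.18 for all tested genes. After a correction for GC content and length, also below, 6 of 76 members were lower and 1 higher, with medians of -0.0177 and -0.0516. Of 10920 tested genes, 386 were then lower and 541 higher.

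**Figure D1:**
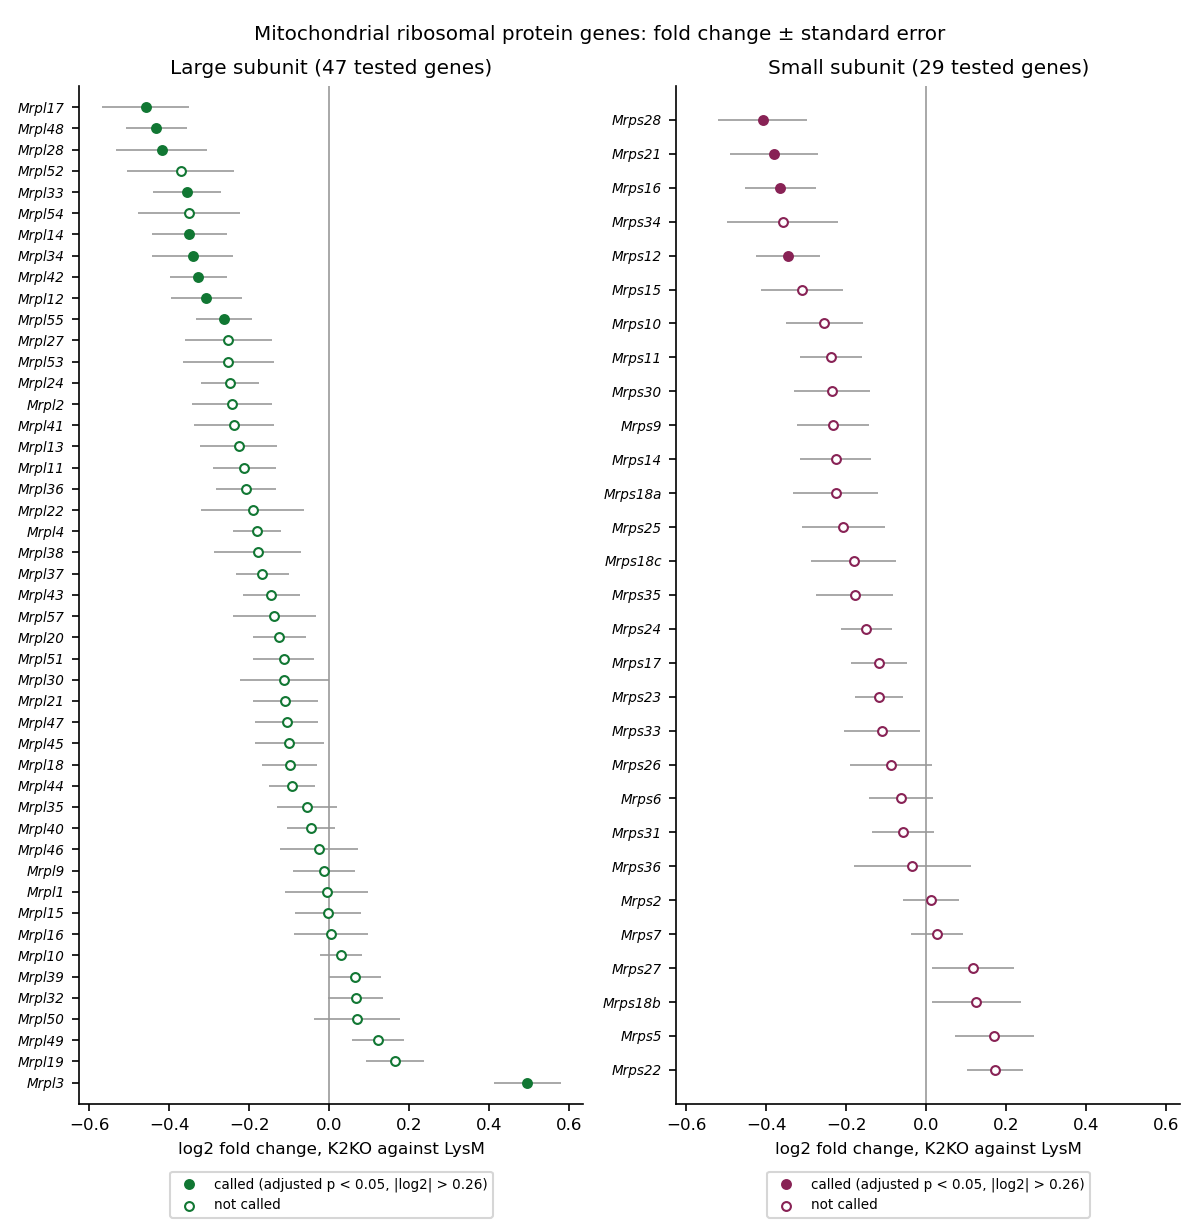
Log2 fold change of K2KO against LysM BMDMs (x axis) for the 47 large subunit (left) and 29 small subunit (right) genes tested, sorted by value, with bars of 1 standard error from limma. Filled points passed the call, 9 lower and 1 higher in the large subunit and 4 lower in the small subunit, and Mrpl3 stands alone at 0.49 on the right.

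In the plot of fold changes the estimates run continuously from the lowest to about zero, and only Mrpl3 lies apart. Mrpl3 (ENSMUSG00000032563, GRCm38 chr9:105053239-105079888, plus strand) encodes a large subunit protein near the site of peptide bond formation. It was listed at 4.24, 4.08, 4.24 and 4.19 FPKM in LysM and at 6.06, 6.90, 5.60 and 5.32 FPKM in K2KO libraries. All 4 K2KO libraries were above all 4 LysM libraries, which were nearly equal to each other. Means were 4.19 ± 0.0754 and 5.97 ± 0.69 FPKM (SD, n = 4 each), a rise of 40.9% (log2 fold change 0.49, SE 0.08, limma adjusted p = 0.0111). With the same thresholds, Mrpl3 was called higher in all 15 other fits to all 8 libraries and without each of the 8 libraries in turn, but it falls just short of a stricter fold limit of 0.5, which no member passed. Its exons share 248 bases on the same strand with Gm38077, a model listed at 0.0496 FPKM in LysM and 0.129 FPKM in K2KO libraries, and how reads were divided between them is not stated. Mrpl3 lies 1.35 Mb from Rpl29 on chromosome 9, and Mrps22, which was separated in the same direction but not called (log2 fold change 0.17, limma adjusted p = 0.105), lies 7.83 Mb from it.

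The largest fall in the large subunit was that of Mrpl17 (ENSMUSG00000030879, chr7:105803206-105811099, minus strand), a protein of bacterial type. Its FPKM were 25.8, 33.8, 34.6 and 33.2 in LysM and 20.7, 22.8, 22.3 and 26.5 in K2KO libraries. LysM0 stood below the other LysM libraries and under K2KO3, so that the groups overlapped. Means of 31.8 ± 4.06 and 23.1 ± 2.43 FPKM (SD, n = 4) differed by -27.2% (log2 fold change -0.46, SE 0.11, limma adjusted p = 0.0235).

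Mrpl48 (ENSMUSG00000030706, chr7:100545751-100608301, minus strand), a mitochondria-specific protein of the central protuberance, was the fall with the smallest adjusted p. It was listed at 14.9, 16.9, 17.1 and 16.3 FPKM in LysM and at 11.2, 11.6, 12.1 and 13.6 FPKM in K2KO libraries. The groups did not overlap, with a change of -25.9% (log2 fold change -0.43, SE 0.08, limma adjusted p = 0.0119). With the same thresholds it was called without each library in turn and in 14 of the 15 other fits, and it did not pass the fold limit of 0.5. The exception among the fits was the sum with its near-identical processed pseudogene Mrpl48-ps (98.1% identity over 636 bases), which held 39.1% of the summed FPKM and had a log2 fold change of 0.01. The sum had a log2 fold change of -0.26 (SE 0.08, limma adjusted p = 0.0555, within a range of 0.00832 to 0.0555 over the 15 fits). Exons of Mrpl48 also share 708 bases with Rab6a on the opposite strand, and whether counting used strand is not stated.

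Among the other large subunit proteins of bacterial type, Mrpl28 was listed at 77.4, 86.5, 99.6 and 99.4 FPKM in LysM and 62.9, 60.1, 68.0 and 80.6 FPKM in K2KO libraries. Only LysM0 and K2KO3 crossed, and the log2 fold change was -0.42 (SE 0.11, limma adjusted p = 0.0327). Mrpl33, the most abundant large subunit gene, was listed at 105.4, 122.2, 138.0 and 125.8 FPKM in LysM and 93.9, 90.5, 98.5 and 99.9 FPKM in K2KO libraries. The groups were separate, with a log2 fold change of -0.35 (SE 0.08, limma adjusted p = 0.0239). Mrpl14 stood at 90.1, 99.8, 97.7 and 107.9 FPKM in LysM and 71.0, 70.9, 78.1 and 91.4 FPKM in K2KO libraries. Here K2KO3 reached into the LysM range, and the log2 fold change was -0.35 (SE 0.09, limma adjusted p = 0.0326).

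The remaining large subunit calls were smaller. Mrpl34 (log2 fold change -0.34), Mrpl42 (-0.33), Mrpl12 (-0.31) and Mrpl55 (-0.26) fell, of which Mrpl34 alone overlapped between the groups. Mrpl34 lies 0.853 Mb from Klf2 on chromosome 8, and variation that came with the floxed allele cannot be told apart from the deletion at such a distance. The thresholds ran close to several members. Mrpl34 had the highest adjusted p of the called members (limma, 0.0435) and Mrpl55 the smallest change (-0.26), whereas Mrpl24 missed on fold change alone (-0.25, adjusted p = 0.0411), Mrps15 on adjusted p alone (-0.31, adjusted p = 0.0579) and Mrps11 on both (-0.24, adjusted p = 0.0554).

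In the small subunit, Mrps28 (ENSMUSG00000040269, chr3:8802146-8923918, minus strand) had the largest fall. It was listed at 33.2, 39.5, 33.3 and 35.7 FPKM in LysM and 22.2, 25.1, 28.3 and 31.7 FPKM in K2KO libraries. No K2KO library reached the LysM range, and the change was -24.7% (log2 fold change -0.41, SE 0.11, limma adjusted p = 0.0332). Mrps21 (chr3:95862634-95871519, minus strand), the most abundant member, was listed at 189.4, 228.3, 235.2 and 249.7 FPKM in LysM and 150.6, 164.3, 179.5 and 199.4 FPKM in K2KO libraries. LysM0 and K2KO3 crossed, and the log2 fold change was -0.38 (SE 0.11, limma adjusted p = 0.0401).

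Mrps16 (ENSMUSG00000049960, chr14:20389304-20393634, minus strand) is a small subunit protein with a bacterial relative. Its values of 69.5, 76.0, 81.0 and 76.4 FPKM in LysM and 52.2, 54.3, 64.5 and 65.0 FPKM in K2KO libraries did not overlap. The change was -22.3% (log2 fold change -0.36, SE 0.09, limma adjusted p = 0.025). Mrps12, which forms part of the decoding centre, was listed at 61.2, 67.2, 67.3 and 69.5 FPKM in LysM and 50.5, 47.1, 52.4 and 59.4 FPKM in K2KO libraries. These groups were separate as well, with a log2 fold change of -0.34 (SE 0.08, limma adjusted p = 0.0215).

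**Figure D2:**
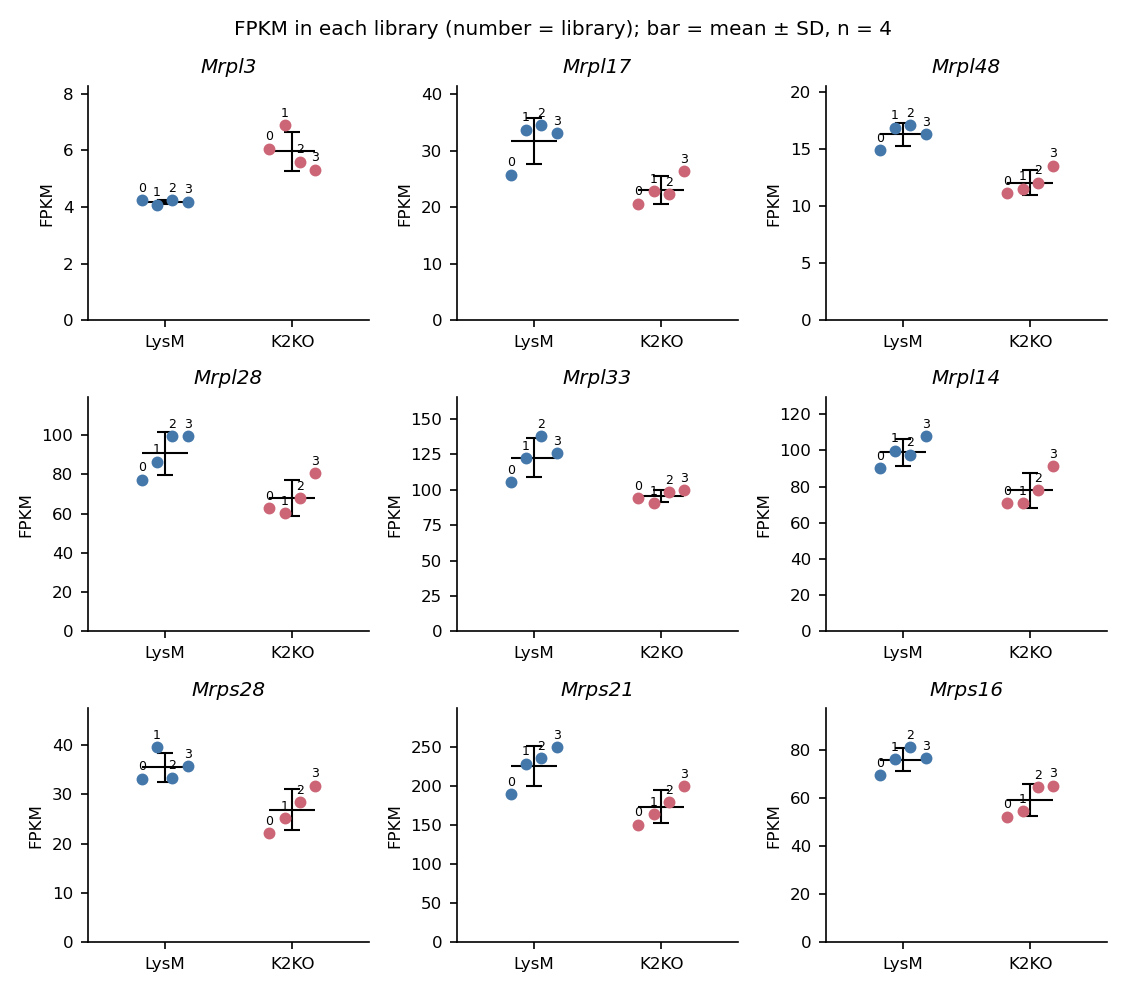
FPKM (y axis, linear from 0) of 9 called members in each library, with the library number above its point and horizontal bars for the mean and SD of 4 libraries. Mrpl3 is higher in every K2KO library, and LysM0 and K2KO3 approach or cross each other in Mrpl17, Mrpl28, Mrpl14 and Mrps21.

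The plot of FPKM by library shows that LysM0 and K2KO3 recur as the crossing pair. LysM0 was the lowest LysM library for 54 of the 76 tested members (71.1%, against 35.3% of all tested genes). K2KO3 was the highest K2KO library for 46 members (60.5%, against 29.5%), and K2KO0 was the lowest for 45 (59.2%, against 31.3%). The median deviation of the members from their own mean over 8 libraries, on the log2 scale, was -0.03 in LysM0, 0.13 in LysM1, 0.11 in LysM2 and 0.14 in LysM3. It was -0.19 in K2KO0, -0.14 in K2KO1, -0.04 in K2KO2 and 0.03 in K2KO3. K2KO3 thus stood above LysM0, K2KO2 and LysM0 were nearly equal, and K2KO0 and K2KO1 were below every LysM library. The medians of all tested genes stayed between -0.02 and 0.04. K2KO0 and K2KO1 also had the greatest relative depth (1.385 and 1.464), against 0.889 and 0.979 in K2KO2 and K2KO3. In LysM the deepest library, LysM3 (1.24), instead had the highest median of the members. The part of depth was not tested. Summed neutrophil markers were at 186, 267, 231 and 315 FPKM in LysM0 to LysM3 and at 175, 292, 227 and 306 FPKM in K2KO0 to K2KO3. Within each genotype they were thus lowest in library 0 and highest in library 3, as the members' medians were, whereas K2KO1 and K2KO2 stood in the opposite order. The part of neutrophil RNA in the members' values was not tested.

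**Figure D3:**
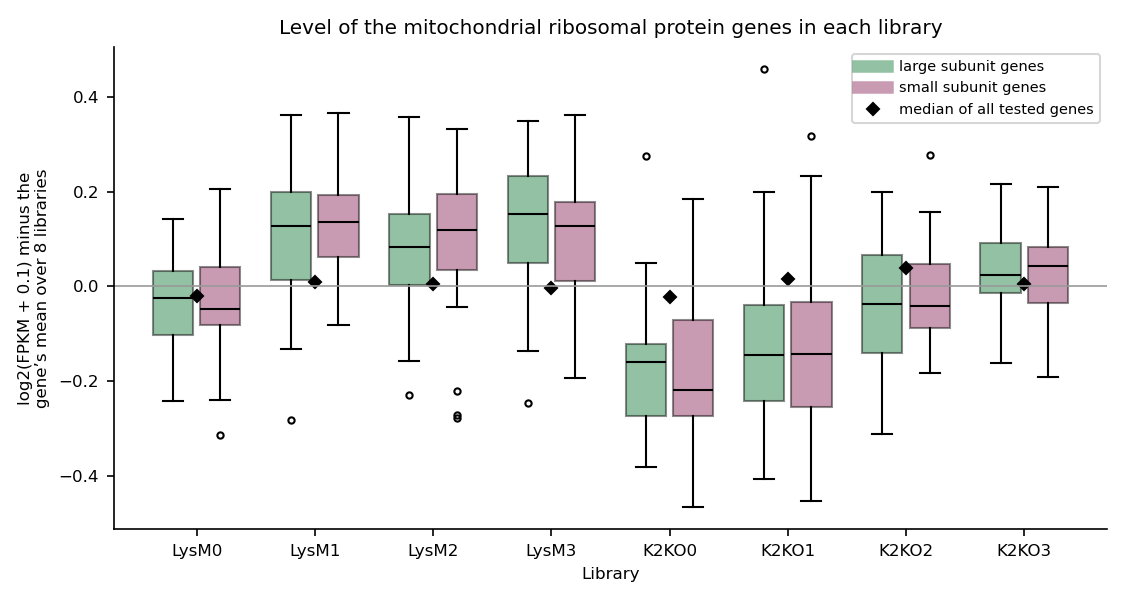
Level of each tested member relative to its own mean over the 8 libraries (y axis, log2 scale) in each library (x axis), as boxes with median and quartiles, whiskers to 1.5 interquartile ranges and circles beyond, for large and small subunit genes. Diamonds give the median of all tested genes, which stays near 0 while the members are highest in LysM1 to LysM3 and lowest in K2KO0 and K2KO1.

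The boxes for the large and small subunit moved together from library to library. Without K2KO3, 29 members were called, 28 of them lower, and without LysM0 20 were called, 19 of them lower. Leaving out any of the other 6 libraries left 2 or 3 calls. Calls over all tested genes moved the same way, to 26.2% without K2KO3 and 21.9% without LysM0, and to between 4.98% and 10.2% without another library. Mrpl3 and Mrpl48 were called whichever library was left out, whereas each of the other 12 called members passed in only 2 or 3 of these 8 fits, those without K2KO3 and without LysM0 among them. Summed over the members, the large subunit came to 1788 ± 105 FPKM in LysM and 1526 ± 137 FPKM in K2KO, and the small subunit to 1050 ± 67.3 and 887 ± 85.4 FPKM (SD, n = 4). The sum of FPKM over all listed genes differed too, from 497253 to 551608 in LysM and from 448235 to 501965 in K2KO libraries. As a share of that sum, the members took 0.534% ± 0.00963 in LysM and 0.509% ± 0.0213 in K2KO. Scaled to equal sums, the members called were 2 lower (Mrpl17 and Mrpl48) and 4 higher (Mrpl3, Mrpl19, Mrpl49 and Mrps22). These were 7.9% of the tested members, against 28.7% of all tested genes. Calls over all genes turned from 53.3% to 89.0% higher. In that scaling the median of all tested genes was 0.18, and the medians of the large and small subunit stood 0.15 and 0.19 below it (values relative to all genes of -0.15 and -0.19).

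The lists by role held 3 of the 14 called members among 13 tested, where 18.4% of all tested genes were called. In the peptidyl transferase region, Mrpl3 rose, while Mrpl2 (log2 fold change -0.24), Mrpl27 (-0.25) and Mrpl16 (0.01) were not called. In the stalk that binds translation factors, Mrpl12 fell, and its partners were not called, Mrpl11 at -0.21 and Mrpl10 at 0.03. Of the members listed for the exit tunnel, the 3 tested, Mrpl24 (-0.25), Mrpl22 (-0.19) and Mrpl45 (-0.10), were not called by limma or least squares per gene, with 1 at an unadjusted p under 0.05. Gadd45gip1, a tunnel protein under another symbol, is given below and was lower. Around the decoding centre and messenger path, Mrps12 fell, with Mrps24 at -0.15 and Mrps5 at 0.17. Mrps5 was not called alone or with its near-identical copy Gm13328 added, which turned its value to -0.20. Gm13328 on its own was lower (log2 fold change -0.40, limma adjusted p = 0.0345).

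By origin, 6 of 28 tested large subunit proteins with bacterial relatives were lower and 1 was higher, and 2 of 19 mitochondria-specific ones, with Ict1 (Mrpl58, not a member by symbol) counted among them, were lower. In the small subunit 3 of 15 with bacterial relatives and none of 10 mitochondria-specific ones were lower by limma, with medians of -0.23 and -0.10. Of these 10, 2 had an unadjusted p under 0.05, 1 of them higher, and least squares per gene called 0. The lists used placed Mrpl55, Mrps28 and Mrps36 in neither class, so the called falls of Mrpl55 and Mrps28 are not in these counts. Over all tested genes 8.61% were lower and 9.84% higher, and the difference between classes was not tested. Mrps18a (-0.23) and Mrps30 (-0.24), which carry a small subunit symbol but sit in the large subunit, were not called, nor were Mrps18b (0.13), Mrps18c (-0.18) and Mrps36 (-0.03), the last of which is also known as a component of the 2-oxoglutarate dehydrogenase complex.

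Mitochondrial ribosomal proteins under other symbols gave 2 calls among 5 genes, both lower, where 8.61% of all tested genes were lower. Gadd45gip1, also known as CRIF1, which lines the exit tunnel, was listed at 13.9, 16.3, 15.6 and 15.2 FPKM in LysM and 10.3, 9.48, 11.7 and 11.9 FPKM in K2KO libraries. Separate groups gave a log2 fold change of -0.49 (SE 0.08, limma adjusted p = 0.0112). Gadd45gip1 is located 12.5 Mb from Klf2 on chromosome 8. As for Mrpl34, variation that may have come with the floxed allele cannot be told apart from the deletion. The small subunit gene Aurkaip1 stood at 115.8, 126.7, 117.7 and 125.2 FPKM in LysM and 82.9, 91.7, 99.7 and 115.3 FPKM in K2KO libraries. Its groups came close without crossing (log2 fold change -0.33, SE 0.10, limma adjusted p = 0.0441). Dap3, a GTP-binding subunit, had a log2 fold change of -0.11, Ptcd3 of 0.13 and Chchd1 of -0.06, and none of these was called. Ict1, the rescue factor built into the large subunit and now named Mrpl58, was not called either (-0.26, limma adjusted p = 0.125).

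Genes that build and serve this ribosome were called at 0% to 11.1% by list, beside 18.4% of all tested genes, a difference that was not tested. None of 25 tested assembly factors was called by limma or by least squares per gene, and 5 had an unadjusted p under 0.05, 1 of them higher. Of 15 translation factors 1 was called, the initiation factor Mtif2, listed at 6.80, 6.09, 6.52 and 6.31 FPKM in LysM and 8.22, 8.41, 7.995 and 7.12 FPKM in K2KO libraries. All its K2KO values were higher (log2 fold change 0.30, SE 0.07, limma adjusted p = 0.0214). One aminoacyl-tRNA synthetase of 14, Sars2 for serine, was lower (log2 fold change -0.33, SE 0.10, limma adjusted p = 0.0393). Of 9 genes of mitochondrial transcription and DNA maintenance, Peo1, the helicase Twinkle, was lower (-0.35, SE 0.09, limma adjusted p = 0.0328).

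Among 7 tested regulators of mitochondrial biogenesis, Gabpa was the single call (14.3%, where 18.4% of all tested genes were called). It encodes the DNA-binding subunit of GABP, an ETS factor known to act on nuclear genes for mitochondrial proteins. Gabpa was listed at 3.82, 3.45, 3.47 and 3.29 FPKM in LysM and 5.51, 5.09, 4.99 and 4.34 FPKM in K2KO libraries. Every K2KO library exceeded every LysM library, a rise of 40.7% (log2 fold change 0.49, SE 0.09, limma adjusted p = 0.012). Of the genes of mitochondrial DNA, 2 were listed and neither exceeded 1 FPKM, so the templates of this ribosome were not analysed here.

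Promoter sequences are shown for Mrpl3, the single rise, and for Mrpl17 and Mrps16, falls that were also called after the correction for GC content and length described next. Mrpl48, the other such fall, has 4 listed starts and is not shown. Each runs 5' to 3' on the gene's strand from 250 bases before to 50 bases after the start in RefSeq (GRCm38.p6), at chr9:105053018-105053317 (plus), chr7:105811038-105811337 (minus) and chr14:20393585-20393884 (minus, the more upstream of the listed starts). Capitals mark matches on either strand to a GABP (ETS) site (CCGGAAGT), an NRF1 site (GCATGCGC) or a GC box (GGGCGG). No match to YY1 (AAGATGGCG) or CACCC box (CCACACCC) letters was found in these windows, and the matches shown do not overlap.
Mrpl3: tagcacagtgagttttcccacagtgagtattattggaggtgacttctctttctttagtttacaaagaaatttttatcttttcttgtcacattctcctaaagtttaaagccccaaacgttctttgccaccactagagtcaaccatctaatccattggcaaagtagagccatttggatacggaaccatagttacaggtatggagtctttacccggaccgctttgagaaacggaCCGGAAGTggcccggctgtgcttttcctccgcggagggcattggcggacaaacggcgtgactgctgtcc
Mrpl17: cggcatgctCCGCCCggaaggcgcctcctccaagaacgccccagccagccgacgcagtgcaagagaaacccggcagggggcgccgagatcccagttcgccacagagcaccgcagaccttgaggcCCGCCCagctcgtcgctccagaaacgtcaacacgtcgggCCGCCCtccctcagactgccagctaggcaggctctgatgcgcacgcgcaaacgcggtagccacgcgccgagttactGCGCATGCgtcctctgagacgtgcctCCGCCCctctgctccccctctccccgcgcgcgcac
Mrps16: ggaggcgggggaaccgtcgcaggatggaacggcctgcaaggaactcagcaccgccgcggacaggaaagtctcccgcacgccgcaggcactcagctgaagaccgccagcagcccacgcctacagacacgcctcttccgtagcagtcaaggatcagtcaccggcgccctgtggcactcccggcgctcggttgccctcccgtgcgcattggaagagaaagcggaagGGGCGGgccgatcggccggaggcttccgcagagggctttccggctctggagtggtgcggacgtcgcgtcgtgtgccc

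Mrpl3 has a GABP match 19 bases before the start. Mrpl17 holds an NRF1 match 11 bases before the start and 4 GC boxes, and Mrps16 a GC box 27 bases before it. Promoters were matched for 68 of the 77 members. A GABP match was found in 17.6% of these, against 10.4% of the promoters of 7758 tested genes and 4.31% of those of 27025 genes in all. For NRF1 the shares were 11.8%, 6.6% and 3.05%, for YY1 11.8%, 4.25% and 1.64%, for the GC box 34 of 68 members, 70.3% and 38.2%, and for the CACCC box, the kind of site that Krueppel-like factors bind, 1.47%, 4.63% and 4.09%. Of the 12 called lower members with a promoter, 2 had a GABP and 2 an NRF1 match. Such matches describe the letters in these windows.

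Fold changes of the members ran with their level and with the make-up of their transcripts. The Spearman correlation of the log2 fold change across the 76 members was -0.70 with mean log2 FPKM, -0.38 with GC content and 0.44 with transcript length. These genes share their libraries and are not independent. Across 10899 tested genes with an annotation the same coefficients were -0.32, -0.42 and 0.37. Split by level into 3 groups, the median log2 fold change was -0.01 in the 25 lowest members, -0.15 in the 25 in the middle and -0.28 in the 26 highest, with 1, 3 and 9 lower calls. Median transcript length in these groups was 2114, 1223 and 754 bases, and median GC content 46.6%, 52.1% and 54.0%.

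**Figure D4:**
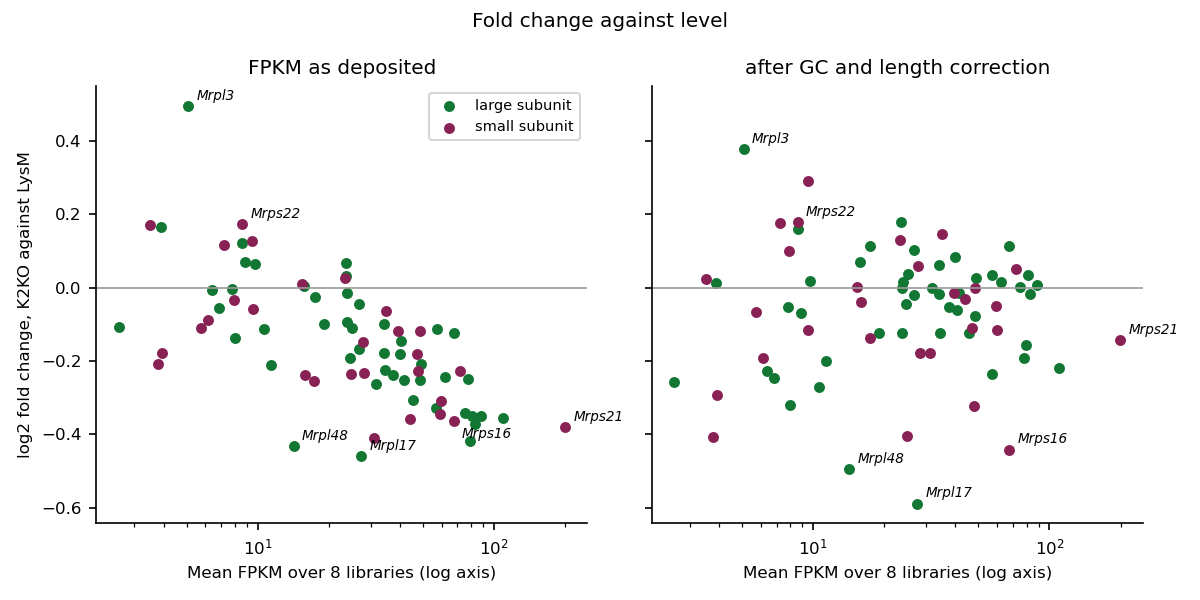
Log2 fold change of K2KO against LysM (y axis) against mean FPKM over the 8 libraries (x axis, log scale) for the 76 tested members, from the FPKM as deposited (left) and after correction of every library for GC content and length by local regression (right). The downward course on the left is absent on the right, where Mrpl17, Mrpl48 and Mrps16 stay low and Mrpl3 stays high.

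In the plot of fold change against level, the slope across members disappeared once every library had been corrected for GC content and length. The Spearman correlation with level became 0.00 across members, against -0.165 over all tested genes. With GC content it became 0.473 and with length -0.325, so that both changed sign. Over all tested genes these were 0.015 and -0.016, near 0 because the correction was fitted to those genes. The median log2 fold changes became -0.02 for the large and -0.05 for the small subunit, against 0.00 for all tested genes, which the fit also holds near 0. After this correction 7 of 76 members were called (9.21%), compared with 8.49% of all tested genes. Of these members 6 were lower and 1 higher, whereas 386 of 10920 tested genes were lower and 541 higher. Mrpl17 (log2 fold change -0.59), Mrpl48 (-0.50) and Mrps16 (-0.44) were still lower and Mrpl3 (0.38) still higher by limma. Mrpl51 (-0.27), Mrps25 (-0.41) and Mrps14 (-0.32) had not been called before and were lower with it. The other 10 lower members lost their call. Of these, Mrpl42 (-0.24, limma adjusted p = 0.0255) and Mrpl33 (-0.22, adjusted p = 0.0463) missed only the fold limit. Mrps28 stood at -0.18, Mrpl28 at -0.16, Mrps21 at -0.14, Mrpl12 at -0.12 and Mrps12 at -0.05, whereas Mrpl55, Mrpl14 and Mrpl34 lay within 0.01 of 0. Outside the members, Gadd45gip1 (-0.44), Peo1 (-0.34) and Gabpa (0.29) were called with the correction too, and Tfam (0.37, before 0.34) gained a call. Aurkaip1 (-0.08), Mtif2 (0.15) and Sars2 (-0.13) lost theirs. So did Lyz2 (-0.45, limma adjusted p = 0.0527), Mertk (0.24, adjusted p = 0.0968) and the copy Gm13328 (-0.24, adjusted p = 0.119). Camp (-0.91) was still called lower. With the principal transcript of each gene in the correction, Gabpa (0.26) and Mrpl51 were not called, and Mrpl11 (-0.27) was called lower. Whether the dependence on GC content and length arose in the cells or in the libraries was not tested.

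Near-identical copies limited several members. A pseudogene copy with at least 95% identity over at least 200 bases was listed for 13 of the 77 members, and 6 of the 14 called members had such a copy or overlapped a listed gene on the same strand. For Mrpl23, Mrpl23-ps1 held 99.6% of the summed FPKM. The sum was 72.8, 85.1, 72.5 and 77.7 FPKM in LysM and 54.4, 54.5, 65.3 and 76.8 FPKM in K2KO libraries. K2KO3 again reached the LysM range, and the log2 fold change was -0.31 (SE 0.12, limma adjusted p = 0.0838). Copies held 85.0% of the sum for Mrps33, 70.4% for Mrps36, 65.6% for Mrps5, 58.3% for Mrpl51 and 39.8% for Mrps18b, so the values of these genes are uncertain. For Mrps16 and Mrps21 the copies held 0.739% and 0.153%.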

How the data were processed

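RNA-sequencing of BMDMs from 4 LysM and 4 K2KO mice was analysed from a table of FPKM that the authors deposited, with a column per library and no pooling. Per the study's methods reads were aligned with TopHat2 and FPKM computed with Cufflinks; the submitters' processing notes name STAR, Cufflinks and Cuffdiff with mm10. Versions, and whether counting used strand, are not given in the sources used here. Column names gave the genotype of all 8 libraries but tied no library to one mouse. Counts were not part of the table, so count tests, counting intervals and detection limits were not used.

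FPKM were compared as log2(FPKM + 0.1) for the 10920 genes with a mean of at least 1 FPKM in limma 3.58.1 (R 4.3.3; lmFit, eBayes with an intensity trend), without covariates. Adjusted p-values are Benjamini-Hochberg values over all tested genes. Fold changes on this scale understate the change of low genes. The procedure was tested on simulated data in which each gene varied independently. That test does not cover shifts that many genes of a library share. GENCODE M21 (GRCm38, the sequence of mm10) gave positions, overlaps, transcript length and GC content (medians over the basic transcripts of a gene), with 23645 of 23761 listed genes and all 77 members matched. Copies were found with BLAST 2.17.0. The correction for GC content and length was a local regression (span 0.3) of each library.

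Members and gene lists were chosen with earlier results of these data known, as were the marker lists and the genes named. Named were, per subunit, the 5 largest called falls, up to 5 rises and the 3 highest levels, the role lists, subunits under other symbols, members next to the thresholds, Klf2 and the called genes of each list. Other genes were named after their values were seen. Alternatives covered pseudocount, filter, scaling, variance model, gene set, replicate block, thresholds and each library left out.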

Additional observations from a re-analysis of the deposited data

Results flagged for a closer look

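Among 82 groups of 4 libraries of the named genes, 4 held a library far from the other 3 by Dixon's test, where chance gives about 4.1 (1 in 20). Mrpl17 was listed at 25.8 FPKM in LysM0, under the 33.2 to 34.6 FPKM of the other LysM libraries. Mrpl52 was listed at 94.8 FPKM in K2KO3, over the 63.5 to 67.2 FPKM of the other K2KO libraries, and Sars2 at 8.70 FPKM in the same library, over 6.63 to 6.84 FPKM. Dap3 was listed at 30.1 FPKM in LysM3, over 26.3 to 26.4 FPKM in the others.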

How the results depend on the processing

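With FPKM as deposited, 10 large and 4 small subunit members and 2014 genes in all were called, with subunit medians of -0.14 and -0.18. The GC content and length correction gave 4, 3 and 927 calls and medians of -0.018 and -0.052. The first version of that correction used 1 principal transcript per gene; it was replaced, after its result had been seen, because some of those transcripts were implausibly long, and it gave 4, 3 and 921 calls and medians of -0.033 and -0.071. Equal sums gave 5, 1 and 3135 calls and medians of 0.022, a reversal, and -0.015 (-0.15 and -0.19 relative to all genes). Without a filter on low values 2, 0 and 483 were called by limma (18 large and 13 small subunit members at an unadjusted p under 0.05), with least squares per gene 3, 0 and 746 (16 and 9), and with a fold limit of 0.5 none of the members and 653 genes (22 and 13). Quantile normalization gave 4, 1 and 1534 calls. Mrpl14 and Mrpl34 turned to 0.0062 and 0.0014 under the correction, with or without the block, and to 0.020 and 0.016 with the principal transcripts; no other called member changed direction in the settings run. Adding near-identical copies, chosen after seeing the data, left 13 of 77 members called.

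Leaving out 1 library gave 2 to 18 large and 0 to 11 small subunit calls, 543 to 2863 over all genes, and medians from -0.19 to -0.12 and from -0.23 to -0.13. The highest counts came without K2KO3 (18 and 11) and without LysM0 (13 and 7). Across genes, same-numbered libraries correlated at -0.07, 0.02, 0.07 and -0.06, so the column numbers were not taken as pairs, although neutrophil markers and the members' medians were lowest in library 0 and highest in library 3 of both genotypes. A replicate block on them gave 11, 6 and 2057 calls, and with the GC content and length correction 4, 3 and 739 calls and medians of -0.018 and -0.052. Depth is unknown, so how far it limits low members such as Mrpl23 could not be set. Of 920 values of single named genes under an alternative, 719 kept their side of the thresholds, 184 lost a call, 11 gained one and 6 turned the direction of a call.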
